A study of Mus musculus with 3 samples.

Results

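The endothelial cluster of the mouse renal medulla that carries the name EndoVR/papilla, for the vasa recta and the papilla, held 3495 cells of 181257 in all, and 3495 of the 21707 endothelial cells (ECs). Its members were the cells whose deposited cell type was Endo and whose deposited cluster was EndoVR/papilla. Of these, 2756 came from healthy controls, 436 from day 28 and 303 from day 84 after reversible unilateral ureteral obstruction (R-UUO), an injury in which one ureter is clamped and later released. All cells came from male BALB/c mice. The tissue is called kidney papilla in places and renal medulla in others, and the study reports that outer medulla was present in it to a variable degree. The controls were healthy mice in 4 pools, and R-UUO mice gave 4 pools at day 28 and 2 pools at day 84, each pool joining the medullas of 3 to 4 mice.

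By the study's methods, mice were 12 to 13 weeks old at clamping, the clamp stayed for a time that differed by strain and was 7 days in the BALB/c mice followed long-term, and the contralateral kidney was removed 10 days after release in long-term studies. The controls are labelled only as healthy, so obstruction and loss of the other kidney cannot be told apart in any comparison with them. Each condition is 1 library in the labels, so condition and run cannot be told apart and p-values measure only the scatter of pools within a run. Fixed cells were hybridised to probe pairs for each gene, and the probes carried a barcode for the pool.

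The vasa recta are the straight capillary vessels that run down into the medulla and back beside the loops of Henle. Descending vessels have a continuous endothelium and are wrapped by pericytes, contractile cells of the vessel wall, while ascending vessels have a thin, fenestrated endothelium. Together they act as a countercurrent exchanger that supplies the medulla without washing out its salt and urea gradient. Plvap, a protein of the diaphragms of endothelial fenestrae, and Slc14a1, the urea transporter UT-B of descending vessels, are commonly used to mark these cells. The tables analysed here give, for each cell, its label, its UMI count (molecules counted once by their molecular identifiers), its number of detected genes and its mitochondrial percentage. Plvap, Slc14a1 and other single genes were not analysed here, and the label was therefore taken as given.

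The pools held between 13013 and 24338 cells. Median UMIs per cell over all cells lay between 1139 and 1578 in control pools, between 1566 and 3302 at day 28, and at 911 and 751 at day 84, so that pools differed in depth by condition. Because one droplet can hold cells of several pools, droplet barcodes recurred between pools: between 37.5% and 59.8% of the EndoVR/papilla cells of a control or day 28 pool had a droplet barcode that another pool of the condition also had, as did 20.0% and 24.1% at day 84. Over all cells these shares were 47.0% to 61.1%, and 27.2% and 22.6%. Day 28 pool 4 stood apart with only 8 EndoVR/papilla cells, and the main day 28 changes are also given without it.

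EndoVR/papilla cells made up less of the medulla after R-UUO. Their share of all cells was 3.89%, 2.62%, 3.69% and 4.06% in control pools 1 to 4. It was 0.646%, 0.521%, 1.64% and 0.0514% in day 28 pools 1 to 4, and 0.379% and 0.961% in the day 84 pools. The lowest control pool exceeded each of the 6 R-UUO pools. Day 28 pool 4, with 8 of its cells, had a 95% Wilson interval of 0.0260% to 0.101%, which does not reach the interval of any other pool and covers counting error only. In bulk or dissociated tissue, fewer cells in the organ and fewer cells recovered by dissociation cannot be told apart.

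**Figure D1:**
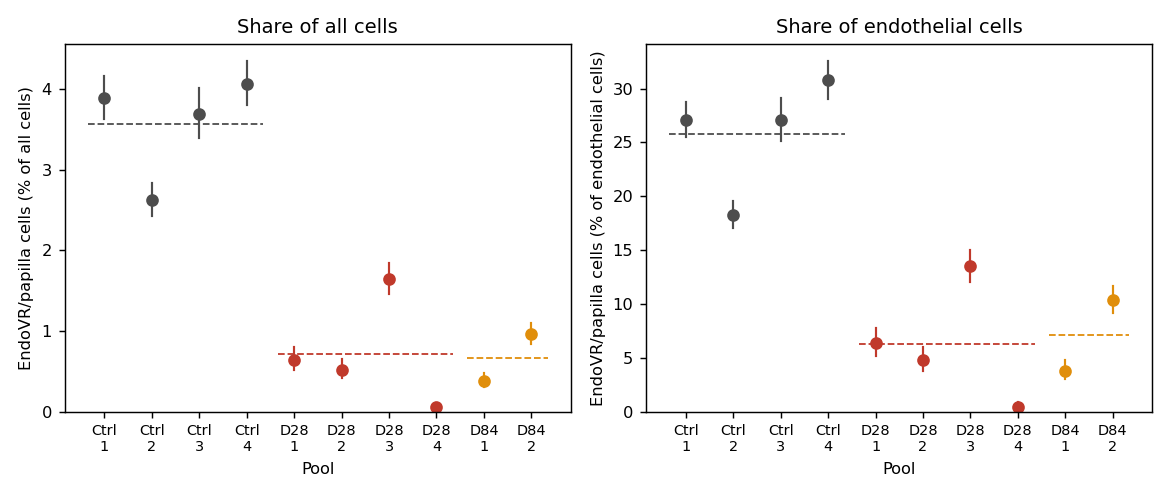
EndoVR/papilla cells as a percentage of all cells (left) and of endothelial cells (right) in each pool, with 95% Wilson intervals as vertical lines and the mean of each condition as a dashed line (Ctrl, healthy control; D28 and D84, days after R-UUO). The 4 control pools lie between 2.62% and 4.06% of all cells, and the 6 pools after R-UUO between 0.0514% and 1.64%.

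On the log2 odds scale the share of all cells fell by 3.12 at day 28 (standard error, SE, 0.914, limma adjusted p = 0.0107; exact two-sided permutation p = 0.0286, the smallest that 4 pools against 4 can give). At day 84 the difference was -2.58 (SE 1.12, 95% interval -5.12 to -0.04), which did not pass the threshold of 0.05 (limma adjusted p = 0.0845; exact permutation p = 0.0667, the smallest that 4 pools against 2 can give). Without day 28 pool 4, which widens the spread used for every contrast, the day 28 change was -2.13 and the day 84 value passed (limma adjusted p = 0.00352). Changes were common among the clusters: 88% of the 25 clusters passed in either direction at day 28 and 36% passed with a lower share, against 48% and 12% at day 84. The value of EndoVR/papilla was the lowest of the 25 at both times. Days 84 and 28 differed by 0.54 (95% interval -2.0 to 3.08, limma adjusted p = 0.670; 8% of clusters passed).

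The scatter between pools also differed. The highest share of all cells was 1.55 times the lowest among control pools, 31.9 times at day 28 and 2.53 times at day 84. At day 28 the SD of the log2 odds was 2.09, the largest of the 25 clusters, whose median was 0.62. In the controls it was 0.30, in rank 18 from the largest. These ranks are a description and were not tested.

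The other endothelial clusters followed this course only in part. As a share of all cells, Endo_b lay below every control pool at day 28 alone, and Endo_a at day 84 alone. Endo_a, the most abundant EC cluster with 16020 cells, made up 8.94%, 10.2%, 8.96% and 7.90% of control cells, 9.26% to 10.2% at day 28 and 7.13% and 6.92% at day 84. Endo_b, with 2192 cells, made up 0.978% to 1.52% of control cells, 0.246% to 0.95% at day 28, and 2.43% and 1.42% at day 84. Within the ECs the share of EndoVR/papilla cells was between 18.3% and 30.8% in control pools. In R-UUO pools it was 6.36%, 4.78%, 13.5% and 0.463% at day 28 and 3.82% and 10.3% at day 84, again without overlap with the controls. Of the 23 clusters taken as a share of their own cell type, 82.6% passed at day 28 and 39.1% with a lower share, against 39.1% and 13% at day 84. EndoVR/papilla itself changed by -3.08 in log2 odds at day 28 (limma adjusted p = 0.0103), or by -2.07 without day 28 pool 4 (limma adjusted p = 0.00279). The day 84 difference of -2.33 did not pass (limma adjusted p = 0.102) but did without that pool (limma adjusted p = 0.00439). Counted in UMIs, these cells contributed 31.2%, 21.4%, 35% and 35.2% of all EC transcripts in the controls, 5.13%, 3.71%, 12.7% and 0.244% at day 28, and 3.03% and 8.26% at day 84. This share of UMIs changed by -3.89 (log2 odds, day 28 minus control; limma adjusted p = 0.00875), or by -2.70 without day 28 pool 4 (limma adjusted p = 0.00203). For day 84 the difference of -3.04 did not pass (limma adjusted p = 0.0976) but did without that pool (limma adjusted p = 0.00303).

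A count of EndoVR/papilla cells per 100 cells of another cluster does not depend on the remaining clusters. Per 100 Endo_a cells there were 43.5, 25.7, 41.2 and 51.5 EndoVR/papilla cells in the control pools. There were 6.97, 5.30, 16.1 and 0.509 at day 28, and 5.32 and 13.9 at day 84. This ratio fell by 3.21 on the log2 scale at day 28 (SE 1.10, limma adjusted p = 0.00701). The difference of -2.18 at day 84 did not pass (SE 1.35, limma adjusted p = 0.151). The mean log2 ratio was below that of the controls for all 24 other clusters at both times. It passed for 16 at day 28 (66.7%) and for 12 at day 84 (50%). The day 84 count was 8 without day 84 pool 1, and 19 without day 28 pool 4 or with the stricter cell filter described below. That filter took out a larger part of EndoVR/papilla cells than of all cells at day 84, so its count is not separate support. None of the ratios differed between days 84 and 28 (0 with limma, and 1 at an unadjusted p under 0.05). All 24 ratios share the EndoVR/papilla count and are not independent. Some of the clusters that passed also had more cells after R-UUO. InjuredCD had 8 to 19 cells in control pools and 1173 and 866 in the day 84 pools. Uro had 143 to 379, and 1415 and 1287. A lower ratio to such a cluster does not by itself show fewer EndoVR/papilla cells. The fit gave each the same SE (1.10 at day 28 and 1.35 at day 84), pooled over the 24 rows as if they were independent. The limma p-values of the ratios therefore count more information than the pools hold and can be too small.

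Pericytes, the mural cells of the descending vessels, were outnumbered by EndoVR/papilla cells in every control pool, with 411, 271, 359 and 543 EndoVR/papilla cells per 100 cells of the cluster Peri. The day 28 pools had 64.6, 38.8, 103 and 3.39, and the day 84 pools 35.2 and 103. No pool after R-UUO reached the lowest control pool. The ratio fell by 3.63 on the log2 scale at day 28 (95% interval -5.80 to -1.45, limma adjusted p = 0.00225). Its day 84 difference was -2.67 (limma adjusted p = 0.0919). At day 28 Endo_b itself made up less of all cells than in any control pool. The ratio to Endo_b passed at day 84 and not at day 28. It overlapped the controls at day 28, with 5.41 to 493 per 100 against 172 to 377 (change -1.57, limma adjusted p = 0.197), and it was 15.6 and 67.5 per 100 at day 84, a fall by 3.06 (limma adjusted p = 0.0496). That day 84 call passed in 3 of 10 fits that left out a pool (limma adjusted p between 0.00627 and 0.468). At day 28 the ratio to Endo_b passed only without pool 3 (-2.38, limma adjusted p = 0.0451), and without pool 4 it was -0.24.

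The ratios to the tubule clusters of the inner medulla, which lie beside these vessels, gave another picture. Each of these clusters had fewer cells in every day 28 pool than in any control pool. ATL, for example, had 1597 to 2803 cells in control pools and 290 to 589 at day 28, and deepIM-CD 1492 to 3039 and 90 to 941. An unchanged ratio therefore does not mean an unchanged number of EndoVR/papilla cells. Per 100 cells of the ascending thin limb cluster ATL there were 30.0, 22.8, 33.3 and 32.7 EndoVR/papilla cells in the controls, 23.7, 24.7, 46.0 and 2.76 at day 28, and 8.57 and 18.1 at day 84. Per 100 cells of the inner medullary thin limb cluster IM-TL there were 58.2, 46.8, 51.1 and 53.1 in the controls, 51.9, 38.4, 75.5 and 1.40 at day 28, and 14.0 and 36.7 at day 84. In both, day 28 pools 1 to 3 lay at or near the control range, pool 4 far below it, and both day 84 pools below every control pool.

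In the collecting duct clusters of the inner medulla, pool 4 was again the lowest at day 28 and both day 84 pools lay below every control pool. Per 100 IM-CD cells there were 25.6, 44.1, 42.1 and 48.6 EndoVR/papilla cells in the controls, 33.1, 31.2, 59.7 and 4.82 at day 28, and 11.3 and 14.9 at day 84. Per 100 deepIM-CD cells, from the deepest part of the duct, there were 26.8 to 50.9 in the controls, 25.2, 30.7, 28.8 and 8.89 at day 28, and 8.90 and 23.8 at day 84. For the descending thin limb cluster DTL no pool after R-UUO reached the control range, with 20.9 to 35.6 per 100 in the controls, 9.67, 8.08, 20.6 and 0.692 at day 28, and 4.87 and 10.2 at day 84. None of the 5 inner medullary ratios passed at either time (0 of 5 with limma, and 1 at day 28, that to DTL, and 0 at day 84 at an unadjusted p under 0.05). For DTL at day 28 the exact permutation p was 0.0286. The day 28 differences ran from -2.30 for DTL (limma adjusted p = 0.0547) to -0.64 for deepIM-CD (95% interval -2.82 to 1.53, limma adjusted p = 0.585). Those of day 84 ran from -2.03 to -1.20 (limma adjusted p between 0.179 and 0.393). All 5 day 28 intervals overlap that of the ratio to Endo_a (-5.38 to -1.03). No difference between these ratios was tested.

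Day 28 pool 4 carried much of these values. Without it, the day 28 ratios to ATL, IM-TL and IM-CD differed from the controls by 0.03, 0.03 and 0.02 on the log2 scale (limma adjusted p = 0.962 for each) and that to deepIM-CD by -0.25 (limma adjusted p = 0.791), while the ratio to Endo_a still fell by 2.22 (limma adjusted p = 0.00440) and that to Peri changed by -2.59 (limma adjusted p = 0.00170). The day 28 ratio to DTL then passed with a change of -1.30 (limma adjusted p = 0.0409), and it also passed without day 28 pool 3 (-2.90, limma adjusted p = 0.0120). With pool 4 left out and the spread smaller, the day 84 ratios to Endo_a, Peri, DTL and IM-CD passed as well, with unchanged values (limma adjusted p = 0.00815, 0.00367, 0.00815 and 0.0156), and those to ATL, IM-TL and deepIM-CD did not (limma adjusted p between 0.0513 and 0.0579).

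**Figure D2:**
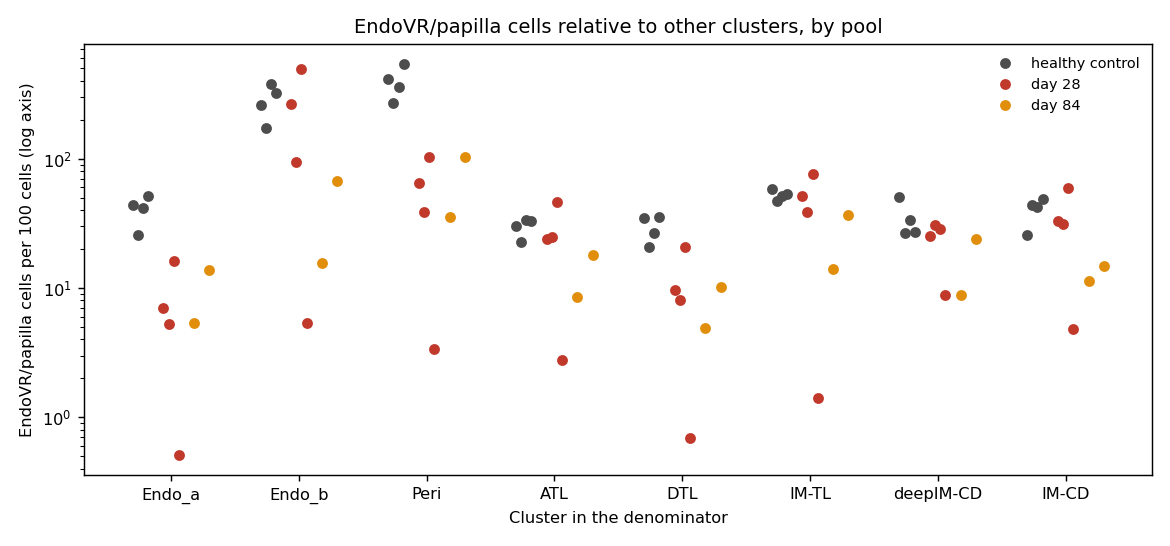
EndoVR/papilla cells per 100 cells of each named cluster on a log axis, 1 point per pool, for healthy control (grey), day 28 (red) and day 84 (orange). Against Endo_a and Peri every pool after R-UUO lies below every control pool. Against both collecting duct clusters, ATL and IM-TL, 3 of the 4 day 28 pools lie at or near the control range and 1 pool far below it.

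Taken as a share of the EndoVR/papilla cells and the 5 inner medullary tubule clusters alone, EndoVR/papilla cells were 6.77%, 5.46%, 6.65% and 6.90% in the controls, 4.09%, 3.78%, 6.89% and 0.351% at day 28, and 1.65% and 3.34% at day 84. This share changed by -1.39 at day 28, which did not pass (limma adjusted p = 0.184), and by -1.5 at day 84 (limma adjusted p = 0.487). Without day 28 pool 4 these were -0.46 (limma adjusted p = 0.184) and -1.5, the latter now passing (limma adjusted p = 0.00803). Proximal tubule cells, which belong to the cortex and the outermost medulla, moved with the same samples. They were between 0.113% and 3.02% of cells in control pools, 22.8%, 21.2%, 13% and 2.95% at day 28, and 3.60% and 7.64% at day 84. With proximal tubule cells left out, the share of EndoVR/papilla cells fell by 2.89 at day 28 (limma adjusted p = 0.0135), and without day 28 pool 4 as well it changed by -1.84 (limma adjusted p = 0.00348). The pool with the fewest EndoVR/papilla cells at day 28, pool 4, was also the day 28 pool with the fewest proximal tubule cells. The part of the dissection in the fall was not tested further. Among the remaining clusters, the ratio in the controls was lowest for the outer medullary collecting duct cluster OM-CD_a (mean 42.5 per 100) and highest for the proximal tubule cluster PT-S2, which had only 1 to 51 cells in a control pool.

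EndoVR/papilla cells carried more transcripts than Endo_a cells in the controls and fewer after R-UUO. In control pools 1 to 4 the median was 1188, 1366.5, 1338.5 and 1194 UMIs per cell, against 786, 914, 798 and 800 in Endo_a. In day 28 pools 1 to 4 it was 1538.5, 1005, 921 and 577, against 1954, 1210, 1028 and 993 in Endo_a. In the day 84 pools it was 568 and 481.5, against 622 and 518. The order of the 2 clusters was thus the same in 4 of 4 control pools and the opposite in 6 of 6 pools after R-UUO. Endo_b cells had more UMIs than EndoVR/papilla cells in every pool.

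**Figure D3:**
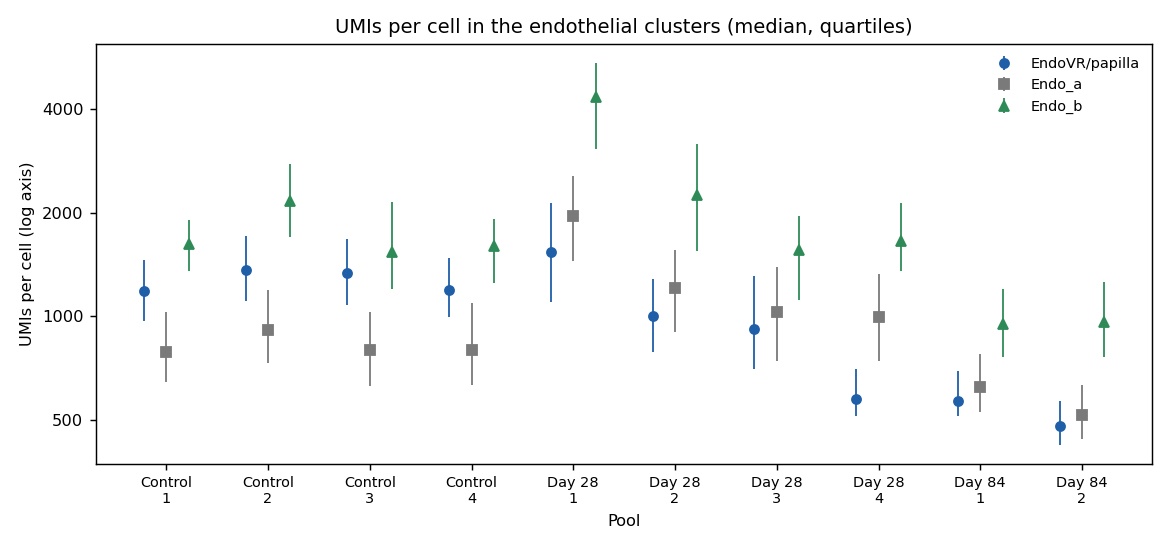
Median UMIs per cell with the lower and upper quartiles (vertical lines) in the EndoVR/papilla, Endo_a and Endo_b clusters of each pool, on a log axis. EndoVR/papilla lies above Endo_a in the 4 control pools and below it in the 6 pools after R-UUO.

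Relative to all other ECs of the same pool, which compares cells of one library and barcode, the median UMI count was 1.41, 1.40, 1.62 and 1.39 times as high in the controls. It was 0.780, 0.811, 0.887 and 0.558 times as high at day 28 and 0.837 and 0.871 times at day 84, with no overlap between the controls and either time. The log2 ratio fell by 0.96 at day 28 (SE 0.138, 95% interval -1.27 to -0.64, limma adjusted p = 4.24e-04; exact permutation p = 0.0286). At day 84 it fell by 0.77 (SE 0.170, limma adjusted p = 0.00853; exact permutation p = 0.0667, the smallest possible). Of the 23 clusters set against the rest of their own cell type, 34.8% passed at day 28 and 26.1% with a lower value, and 21.7% and 13% at day 84. Days 84 and 28 differed by 0.19 (95% interval -0.19 to 0.57, limma adjusted p = 0.628; 4.35% of clusters passed). The day 28 change ranged from -1.04 to -0.82 when each pool was left out in turn (-0.82 without day 28 pool 4), and passed each time.

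The day 84 change was less firm. It no longer passed without day 84 pool 1 (-0.74, limma adjusted p = 0.0771) or without day 84 pool 2 (-0.80, limma adjusted p = 0.0519), each of which leaves 1 pool at that time. Against Endo_a alone the UMI ratio fell at both times, by 1.01 at day 28 (limma adjusted p = 5.29e-05; -0.88 without day 28 pool 4) and with a change of -0.74 at day 84 (limma adjusted p = 0.00679). Against Endo_b alone it fell by 0.80 at day 28 (limma adjusted p = 0.00110; -0.71 without day 28 pool 4). Its day 84 difference of -0.44 did not pass (limma adjusted p = 0.104).

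The same measure was taken against each of the 24 other clusters. UMIs of EndoVR/papilla cells fell relative to 20 of them at day 28 (83.3%), with log2 changes from -1.73 to -0.55, and relative to 12 at day 84 (50%). All 24 comparisons share the EndoVR/papilla median of each pool and are not independent. They were added after seeing the data. Among the inner medullary clusters the day 28 fall was 1.21 against ATL, 1.29 against DTL, 0.77 against IM-TL and 0.82 against IM-CD. At day 84, 2 of the 5 inner medullary clusters passed, ATL (-0.95, limma adjusted p = 0.00376) and DTL (-0.72, limma adjusted p = 0.0127), and IM-TL (-0.40, limma adjusted p = 0.0713) and IM-CD (-0.42, limma adjusted p = 0.0856) did not. Against deepIM-CD neither time passed, with a difference of 0.11 at day 28 (SE 0.146, limma adjusted p = 0.479) and 0.29 at day 84 (SE 0.179, limma adjusted p = 0.158). Without day 28 pool 4, UMIs fell relative to 20 clusters at day 28 and 16 at day 84, among them IM-TL (limma adjusted p = 0.0250), and the day 84 difference of 0.29 against deepIM-CD passed as a higher value (limma adjusted p = 0.0444). Ranked by median UMIs among the clusters of a pool with at least 5 cells, EndoVR/papilla was in ranks 9 to 16 from the lowest in the 4 control pools, of 24 or 25 clusters, and the lowest of 25 in each of the 6 pools after R-UUO. The ranks by detected genes were 10 to 16 and again the lowest of 25 in all 6.

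In absolute terms the difference in UMIs between day 28 and the controls did not pass (log2 change -0.41, 95% interval -0.97 to 0.14, limma adjusted p = 0.204), with day 28 pool 1 above every control pool and pools 2 to 4 below. In that comparison 36% of the 25 clusters passed, all of them higher. This value depended on single pools: without day 28 pool 1 it was -0.65 and passed (limma adjusted p = 0.0226), and without day 28 pool 4 it was -0.17 (limma adjusted p = 0.491). At day 84 the count fell by 1.28 (SE 0.342, limma adjusted p = 0.00195), where 40% of clusters passed, all lower. Without day 84 pool 2 the fall was 1.16 and did not pass (limma adjusted p = 0.0845).

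The number of detected genes per cell followed the UMIs. Its median was 991, 1031.5, 1021.5 and 936.5 in control pools 1 to 4, 1097, 743, 704 and 499.5 at day 28, and 492 and 405.5 at day 84. In Endo_a it was 649 to 726.5 in the controls, 1308, 894, 776 and 766.5 at day 28, and 521 and 427 at day 84. As with the UMIs, EndoVR/papilla lay above Endo_a in all control pools and below it in all 6 others. The log2 difference of -0.44 from the controls at day 28 did not pass (limma adjusted p = 0.0807; 28% of clusters passed, all higher). It passed without day 28 pool 1 (-0.64, limma adjusted p = 0.00814) and with the pools paired by probe barcode (-0.44, limma adjusted p = 0.0117). It was smaller and did not pass without day 28 pool 4 (-0.26, limma adjusted p = 0.256), with at least 20 cells per pool, which drops the same pool (limma adjusted p = 0.319), and with the stricter filter (-0.22, limma adjusted p = 0.365). At day 84 the number fell by 1.15 (SE 0.265, limma adjusted p = 1.82e-04; 60% of clusters passed, all lower).

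Many of the cells at day 84 lay close to the authors' minimum of 300 detected genes. The share of EndoVR/papilla cells with fewer than 400 genes was 0%, 0%, 0.188% and 0% in the controls, 0%, 0%, 7.38% and 0% at day 28, and 2.67% and 47.8% at day 84. In Endo_a it was 0% in each control pool, 0.166% to 2.20% at day 28, and 2.91% and 37.9% at day 84, and over all cells it reached 8.99% in day 84 pool 2. Below 500 genes the shares of EndoVR/papilla cells were 1.21% to 2.63% in the controls, 3.57%, 8.22%, 17.7% and 50% at day 28, and 54.7% and 84.6% at day 84, against 15.9% and 29.8% over all cells of the day 84 pools. How many cells of this cluster fell under the minimum and were left out was not tested. With a minimum of 500 genes and at most 5% mitochondrial counts, 34 and 35 EndoVR/papilla cells were left in the day 84 pools. The share at day 84 was then 0.205% and 0.213% against 2.91% to 4.46% in the controls, and the change was -4.22 (limma adjusted p = 0.0148). By the shares above, this filter took out more of EndoVR/papilla than of all cells at day 84, so this change is not separate support.

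**Figure D4:**
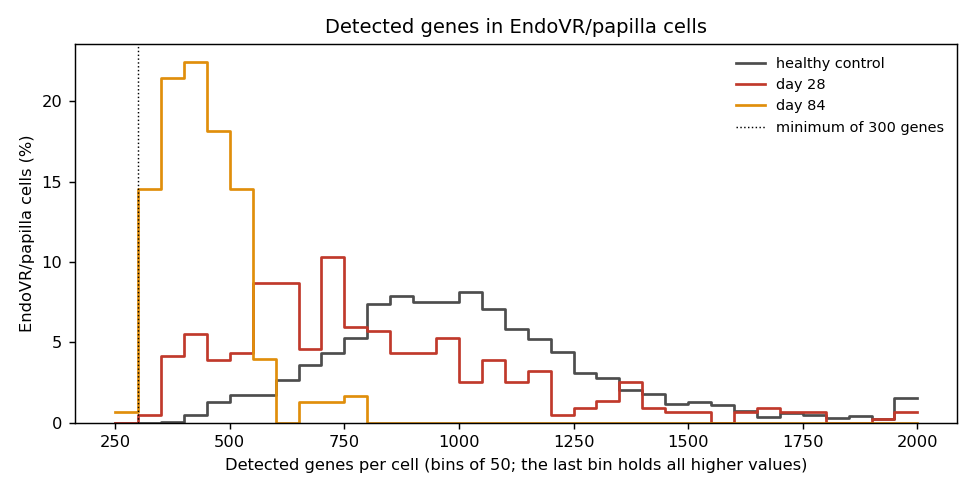
Percentage of EndoVR/papilla cells of each condition by number of detected genes, in bins of 50, pools combined (2756 control, 436 day 28 and 303 day 84 cells). The dotted line is the authors' minimum of 300 genes, and 36.6% of day 84 cells lie below 400 genes against 0.0363% of control cells.

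Within a narrower range of depth, which did not equalise it, the difference in genes was smaller. Of cells with 500 to 1000 UMIs, the median number of genes was 727, 689, 697 and 698.5 in the controls, 702, 632, 589 and 536.5 at day 28, and 512 and 473 at day 84. Within this window the median depth still differed, with 829 to 857 UMIs in the controls, 851, 788, 763 and 636 at day 28, and 610 and 585 at day 84. Detected genes changed by -0.20 at day 28 (limma adjusted p = 0.0395; -0.14 and limma adjusted p = 0.121 without day 28 pool 4) and by -0.51 at day 84 (limma adjusted p = 7.39e-04). Cells with 1000 to 2000 UMIs numbered 367 to 556 per control pool, but 47, 37, 94 and 0 at day 28 and 1 and 0 at day 84, so this deeper window gave no day 84 value.

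Very deep cells, among which undetected doublets would be sought, were few. There were 13 EndoVR/papilla cells above 5000 UMIs in the controls, 1 at day 28 and 0 at day 84. The authors removed called doublets before deposit, and no second caller was run.

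Mitochondrial transcripts were measured in nearly every EndoVR/papilla cell of the controls and less often after R-UUO. The median mitochondrial percentage was 0.761%, 1.53%, 0.954% and 0.810% in the control pools. It was 0.225% in day 28 pool 1 and 0% in the other 5 pools after R-UUO. The share of cells without a mitochondrial UMI was 0.132%, 0.157%, 0.940% and 1.21% in the controls, 14.3%, 94.5%, 93.7% and 62.5% at day 28, and 77.3% and 100% at day 84. In day 28 pool 4 these were 5 of 8 cells.

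**Figure D5:**
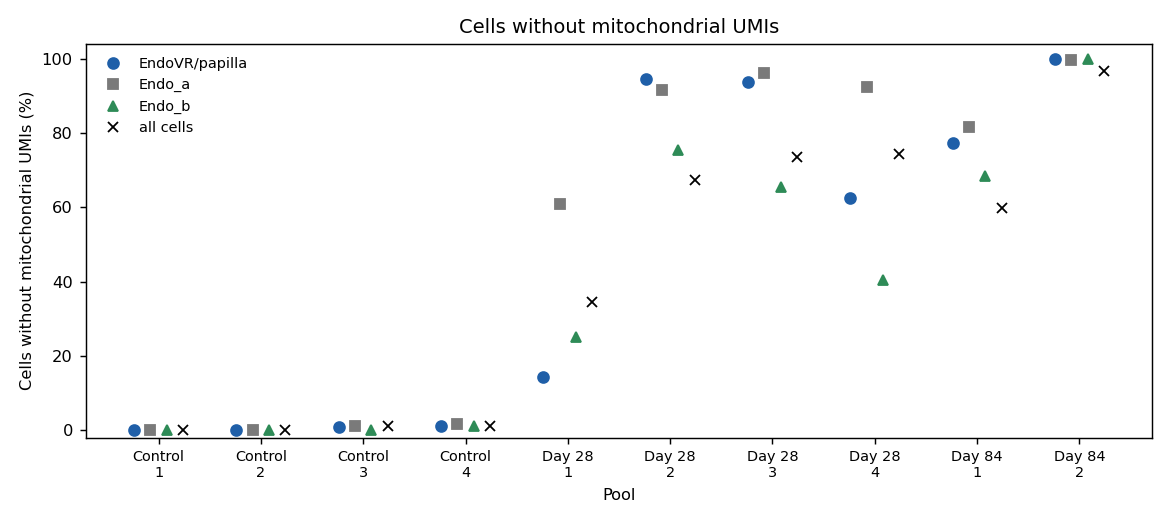
Percentage of cells without mitochondrial UMIs in the EndoVR/papilla, Endo_a and Endo_b clusters and over all cells, by pool. In EndoVR/papilla it is at most 1.21% in the controls and between 14.3% and 100% after R-UUO, with day 28 pool 1 the lowest of the 6.

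This change was shared by the whole data set. The log2 odds of a cell without mitochondrial UMIs rose by 9.13 at day 28 (SE 2.13, limma adjusted p = 5.93e-05; exact permutation p = 0.0286; 9.40 without day 28 pool 4), where 92% of the 25 clusters passed, all higher. The day 84 rise was 12.93 (SE 2.61, limma adjusted p = 2.88e-06), where 100% passed, all higher. Over all cells of a pool the share was at most 1.18% in the controls, 34.6%, 67.4%, 73.5% and 74.3% at day 28, and 59.9% and 96.7% at day 84. Endo_a had 60.8%, 91.5%, 96.1% and 92.3% such cells at day 28, and 81.6% and 99.8% at day 84. EndoVR/papilla cells thus had mitochondrial UMIs more often than Endo_a cells in day 28 pools 1, 3 and 4 and in day 84 pool 1. They had them less often in day 28 pool 2 and day 84 pool 2. Endo_b had 25%, 75.3%, 65.5% and 40.5% such cells at day 28, and 68.3% and 100% at day 84. Pooled over all UMIs of the cluster, mitochondrial UMIs made up 1.16% to 1.86% in the control pools, 0.263% in day 28 pool 1 and at most 0.0796% in the other 5 pools. The part of probe set, run and processing in this difference was not tested.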

How the data were processed

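Single cells of dissected medulla were assayed by fixed RNA probes in 4 control, 4 day 28 and 2 day 84 pools. The authors aligned and counted with Cell Ranger 7.1 on mm10, as the submitters' processing notes name them, removed cells with fewer than 300 genes or over 10% mitochondrial reads, used SoupX against ambient RNA, dropped doublets called by scDblFinder or seen as mixed profiles, and clustered with Seurat. The deposited values are UMI counts and numbers of detected genes (whole-number counts), fractional expected counts of UMIs in control pool 1, which were not rounded, and a mitochondrial percent that the authors computed per cell. Pools, cell types and clusters were the authors' labels.

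The pool was the replicate. Shares were log2 odds and ratios log2 values, both after adding 0.5 cells. Medians were taken per pool where a cluster had at least 5 cells. Each measure was fitted over all clusters with limma 3.58.1 (lmFit, eBayes, two-sided, R 4.3.3) with 3 conditions in one fit and Benjamini-Hochberg adjustment over all rows. A result passed at an adjusted p of 0.05. Two-sided exact permutation tests compared absolute differences of means (scipy 1.17.1). The limma step was first tested on simulated data. These had the same spread in every condition, taken from the control pools, so they do not cover the wider spread seen at day 28. Other steps ran in Python 3.11.15 with pandas 2.3.3, and plots in matplotlib 3.10.9. Alternatives were a stricter cell filter, other denominators, other UMI windows, mean log2 values, minimum cell numbers, and leaving out each pool.

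The members and lists were chosen with earlier results of these data known. The clusters named were EndoVR/papilla, the other EC clusters, the inner medullary tubule clusters, Peri, and the remaining clusters with the highest and lowest ratio in the controls. InjuredCD, Uro and Fib were named in addition, after seeing the data. The smallest pool held 13013 cells, so the number of pools limits the precision of most shares.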

Additional observations from a re-analysis of the deposited data

Results flagged for a closer look

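In 28 groups of 4 pools examined for a pool far from the others, 2 had one, where 1.4 would be given by chance at about 1 in 20. Among controls, the UMIs of EndoVR/papilla cells relative to other ECs were highest in control pool 3, at 1.62 times, and its gap to the next pool was 0.890 of the range. Among day 28 pools, the ratio to deepIM-CD was lowest in pool 4, at 8.89 per 100, with a gap of 0.835 of the range.

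Days 28 and 84 differed from each other in depth. The median UMIs of EndoVR/papilla cells were lower at day 84 than at day 28 by a log2 difference of -0.86 (limma adjusted p = 0.0131), and the median detected genes by -0.71 (limma adjusted p = 0.00867). All 25 clusters were lower at day 84 in both measures (100% passed), and EndoVR/papilla had the smallest of the 25 differences in UMIs. Its day 84 cells lay close to the minimum of 300 detected genes, with medians of 492 and 405.5 in pools 1 and 2. The part of this minimum in the small difference was not tested.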

How the results depend on the processing

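Leaving out a day 84 pool leaves 1, which is assumed to vary like the others. The cause of the following shifts was not tested. With inner medullary clusters alone as the denominator, the share of all cells changed by -1.39 at day 28 (limma adjusted p = 0.184), and day 84 lay below day 28 by -0.11 in place of 0.54. The stricter filter took out a larger part of EndoVR/papilla cells than of all cells at day 84. It gave -4.22 at day 84 (limma adjusted p = 0.0148) and -0.71 for day 84 against day 28. With it the share of ECs at day 84 changed by -3.37 in place of -2.33 (limma adjusted p = 0.0356). Lower ratios that passed at day 84 numbered 19 in place of 12. In fits added after seeing the data, day 28 pool 4 was left out as well. The share of all cells among inner medullary clusters was then -0.46 at day 28, -1.5 at day 84 and -1.05 between the times, the share without proximal tubule cells -2.51 at day 84 and -0.67 between the times, and the UMI share of ECs -3.04 at day 84 and -0.34 between the times. Relative to Endo_b alone, the day 84 UMI ratio was -0.44 (limma adjusted p = 0.104). Detected genes at day 28 passed between 500 and 1000 UMIs (-0.20, limma adjusted p = 0.0395).

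Leaving out each pool in turn, the share of all cells ranged from -3.78 to -2.13 at day 28, from -3.25 to -1.91 at day 84 and from -0.45 to 1.21 between the times (-0.45 without day 28 pool 4 and -0.13 without day 84 pool 2). The share of ECs ranged from -3.10 to -1.57 at day 84 (without day 28 pool 4, -2.33 and limma adjusted p = 0.00439) and from -0.26 to 1.51 between the times (-0.26 without day 28 pool 4 and -0.02 without day 84 pool 2). Lower ratios at day 84 numbered 8 to 19 (19 without day 28 pool 4). Median UMIs ranged from -0.65 to -0.17 at day 28, from -1.40 to -1.16 at day 84, and from -1.11 to -0.63 between the times (-0.75 and limma adjusted p = 0.123 without day 84 pool 2). Detected genes ranged from -0.64 to -0.26 at day 28 and from -0.90 to -0.52 between the times (-0.57 and limma adjusted p = 0.119 without day 84 pool 2), and the UMI ratio to other ECs from -0.80 to -0.72 at day 84. The odds of no mitochondrial UMI ranged from 0.26 to 7.35 between the times (7.35 and limma adjusted p = 0.00322 without day 84 pool 1).

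The probe barcode as a replicate block was chosen after seeing the data. So were the windows of 500 to 1000 UMIs and the UMI ratios to single clusters, the EC clusters among them. Each barcode was shared by equally numbered control and day 28 pools, and day 84 pools 1 and 2 had the barcodes of pools 3 and 4. A barcode names no shared animal. With the block the share of all cells changed by -3.12 at day 28 (limma adjusted p = 0.0320). The day 84 value was -2.41 (limma adjusted p = 0.191). Among the tests of single values the block changed the call of detected genes at day 28 alone (-0.44, limma adjusted p = 0.0117). Lower ratios that passed numbered 15 at day 28 and 9 at day 84, in place of 16 and 12. The window of 1000 to 2000 UMIs gave no value at day 84.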
